A study of Mus musculus with 27 samples.

Results

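The ABC transporters are membrane pumps and related proteins built around an ATP-binding cassette. All genes were taken whose annotated symbol starts with Abca, Abcb, Abcc, Abcd, Abce, Abcf or Abcg followed by a digit, and each was read by 1 probe set. This gave 45 genes of 18193: 14 ABCA, 8 ABCB, 10 ABCC, 3 ABCD, 1 ABCE, 3 ABCF and 6 ABCG genes. They were measured in full-thickness mouse colon on 27 arrays, in 9 groups of 3. The groups were Il10-/- mice in conventional housing (CC), Il10-/- mice in specific pathogen free housing (SPF) and wild-type mice in conventional housing (WT), each at 7, 9 and 12 weeks of age. Il10 is an anti-inflammatory cytokine gene, and its knockout is used as a model of colitis. The code CC was read as the conventional knockouts by elimination. There were no SPF wild types among the samples, so SPF knockouts and wild types differ in genotype and housing together. The authors picked the 3 replicates of a group by colon length and colonic damage. Whether a sample pools animals is not stated, so the p-values measure only the spread between these samples.

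Most ABC proteins use ATP to carry lipids, sterols, conjugates, drugs or peptides across a membrane. In the gut epithelium, P-glycoprotein and ABCG2 sit on the luminal side and return foreign compounds to the lumen, ABCG5 and ABCG8 return plant sterols, and several ABCC proteins export conjugates and signalling molecules. The ABCE and ABCF proteins keep the cassettes but have no membrane part and work in protein synthesis. Mice without Abcb1a, a P-glycoprotein gene, can develop colitis of their own.

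Medians of the arrays ranged over 4.92 to 4.99 (log2), and the lowest Spearman correlation between any 2 arrays was 0.953. The number of arrays limits the precision. Replicate 2 of the 12-week SPF knockouts stood apart from its group, with Spearman correlations of 0.977 and 0.969 with replicates 1 and 3, as did replicate 3 of the 9-week SPF knockouts (0.983 with replicate 1). Replicate 2 of the 12-week wild types had a gap of 0.95 (log2) between its 3′ and 5′ actin probe sets, the 3′ signal being higher, against at most 0.72 on the other arrays. The Il10 probe set read 4.66 or more on the 18 arrays of knockouts and 3.83 or less on the 9 of wild types, and its place relative to the deleted part is not given, so it checks nothing about the allele. The mean of 12 epithelial markers lay between 11.57 and 12.29 and that of 10 smooth muscle markers between 9.35 and 11.34 over all arrays. A signal on these arrays is on the log2 scale and belongs to its own probe set, so levels of different genes were not compared. For scale, the probe set of Abcd3, a peroxisomal transporter of fatty acyl-CoA, read 10.50 to 11.64 and that of Abca16 read 2.40 to 2.77, the ends of the 45 means.

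Most calls among ABC genes against wild types came from 9-week conventional knockouts and 12-week SPF knockouts. In 9-week conventional knockouts 11 of 45 ABC genes (24.4%) passed the limma test against 9-week wild types (adjusted p under 0.05, by Benjamini-Hochberg over the 18193 genes), beside 24% of all genes. Of these, 6 rose and 5 fell. In 12-week SPF knockouts 19 of 45 (42.2%) passed against 12-week wild types, beside 34.8% of all genes, 6 of them higher and 13 lower. Of all genes, 14.2% were higher and 9.86% lower in the first comparison, and 18.2% were higher and 16.6% lower in the other. The median log2 difference of the ABC genes was -0.03 in 9-week conventional knockouts (0.00 over all genes) and -0.02 in 12-week SPF knockouts (0.02 over all genes), both near 0. No filter on low signals was applied, and 18 of the 45 read below the 40% point of mean signal of all genes. The groups of 3 arrays did not overlap for 21 of 45 ABC genes in 9-week conventional knockouts, beside 42.5% of all genes, and for 16 of 45 in 12-week SPF knockouts, beside 33.5% of all genes. Leaving out replicate 1 of the 9-week conventional knockouts left 3 calls there, replicate 2 left 5, and any 1 of the 3 wild-type arrays left 6. In 12-week SPF knockouts 12 calls were left without replicate 1 and 11 without replicate 3, but 22 without replicate 2, the array that stood apart, and 15 without wild-type replicate 2. Shares of all genes called with an array left out were not counted, here or below.

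**Figure D1:**
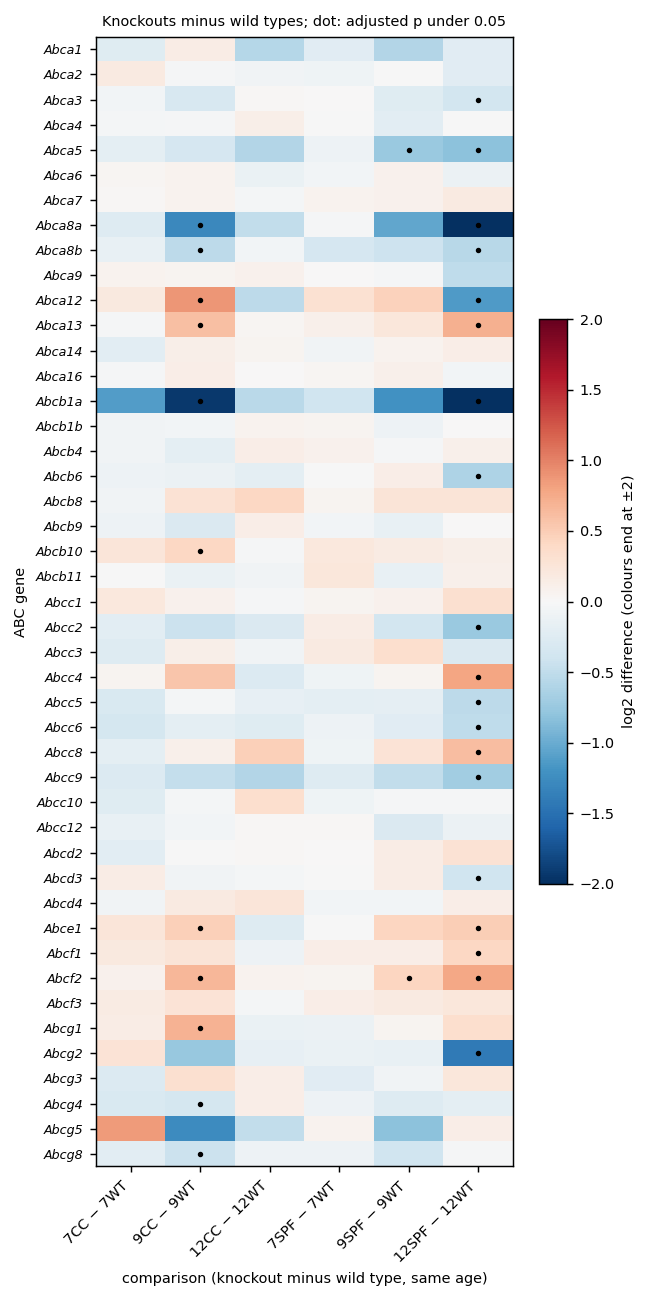
Log2 differences of the 45 ABC genes, each kind of knockout minus wild types of the same age, with 1 row per gene and 1 column per comparison. Colours end at ±2 and black dots mark an adjusted p under 0.05. The dots lie in the columns of 9-week conventional knockouts (11), 9-week SPF knockouts (2) and 12-week SPF knockouts (19).

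These 2 comparisons share no array. Of the ABC genes called in them, 7 were called in both, which is 63.6% of the 9-week list and 36.8% of the 12-week list. Over all genes the shared 3334 calls were 76.2% and 52.7% of the lists. Abcb1a, Abca8a and Abca8b fell in both, Abce1, Abcf2 and Abca13 rose in both, and Abca12 rose in 9-week conventional knockouts and fell in 12-week SPF knockouts. Over all 45 ABC genes 33 had the same sign in both, and the differences correlated at r = 0.72 (Pearson) and 0.65 (Spearman), a description over genes that share the arrays of each comparison. No ABC gene was called in 9-week conventional against 12-week SPF knockouts, where 0.011% of all genes were. The unadjusted p of limma was under 0.05 for 3 higher and 2 lower ABC genes in that comparison, and without SPF replicate 2 there were 7 calls in it, 4 higher and 3 lower. The share of all genes called without that array was not counted.

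**Figure D2:**
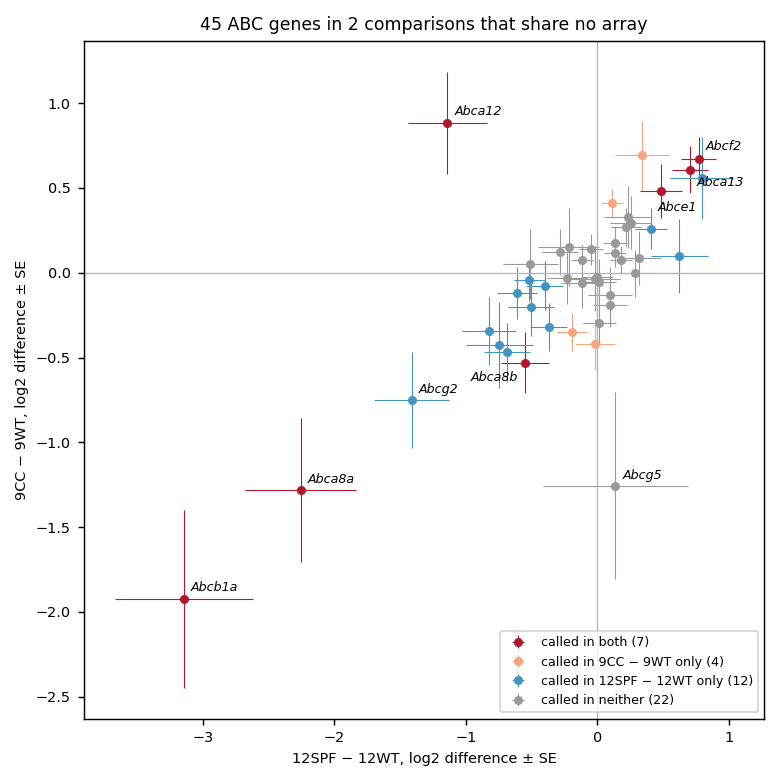
Each point is 1 of the 45 ABC genes, with its log2 difference in 12-week SPF knockouts from 12-week wild types on the horizontal axis and that in 9-week conventional knockouts from 9-week wild types on the vertical axis, both ± SE. The 7 genes called in both are red, and Abca12 is the 1 of them with opposite signs.

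Start regions are printed for the 6 genes called in the same direction in both comparisons, to show what stands upstream of members that moved together. The windows come from RefSeq (GRCm38.p6), run from 250 bases before to 50 after the start of the transcript, and are written 5′ to 3′ on the strand of the gene. They lie on the plus strand at chr5:8566841-8567140 (Abcb1a) and chr11:9191692-9191991 (Abca13), and on the minus strand at chr11:110095888-110096187 (Abca8a), chr11:109995796-109996095 (Abca8b), chr8:79711691-79711990 (Abce1) and chr5:24577418-24577717 (Abcf2, for 1 of 2 starts listed). Capitals mark matches, on either strand, to TATAAA (the TATA box), CCAAT (the CCAAT box), GGGCGG (a GC box), CACGTG (an E box), AGGTCA (a nuclear receptor site), TTCNNNGAA (a STAT site) and GCGTG (a dioxin response core), and no printed match overlaps another.
Abcb1a: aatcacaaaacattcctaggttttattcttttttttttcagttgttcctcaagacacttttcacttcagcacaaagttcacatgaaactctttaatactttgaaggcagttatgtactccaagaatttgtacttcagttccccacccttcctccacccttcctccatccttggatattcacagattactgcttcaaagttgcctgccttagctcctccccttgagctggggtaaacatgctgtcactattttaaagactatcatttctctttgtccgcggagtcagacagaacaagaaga
Abca8a: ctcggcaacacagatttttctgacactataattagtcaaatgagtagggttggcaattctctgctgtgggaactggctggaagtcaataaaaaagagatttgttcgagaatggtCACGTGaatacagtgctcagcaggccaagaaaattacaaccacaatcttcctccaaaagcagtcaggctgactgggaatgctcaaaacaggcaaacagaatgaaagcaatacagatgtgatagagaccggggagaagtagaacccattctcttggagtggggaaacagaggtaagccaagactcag
Abca8b: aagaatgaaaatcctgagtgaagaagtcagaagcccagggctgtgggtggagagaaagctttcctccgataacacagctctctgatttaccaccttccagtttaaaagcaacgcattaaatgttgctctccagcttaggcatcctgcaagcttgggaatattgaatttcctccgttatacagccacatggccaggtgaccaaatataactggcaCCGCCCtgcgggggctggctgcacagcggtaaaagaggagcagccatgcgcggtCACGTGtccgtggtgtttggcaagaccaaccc
Abca13: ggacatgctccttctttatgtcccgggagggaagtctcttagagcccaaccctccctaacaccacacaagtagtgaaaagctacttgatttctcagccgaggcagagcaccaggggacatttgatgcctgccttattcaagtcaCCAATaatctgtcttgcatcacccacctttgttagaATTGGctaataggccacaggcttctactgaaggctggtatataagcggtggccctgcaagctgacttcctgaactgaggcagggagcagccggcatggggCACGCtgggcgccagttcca
Abce1: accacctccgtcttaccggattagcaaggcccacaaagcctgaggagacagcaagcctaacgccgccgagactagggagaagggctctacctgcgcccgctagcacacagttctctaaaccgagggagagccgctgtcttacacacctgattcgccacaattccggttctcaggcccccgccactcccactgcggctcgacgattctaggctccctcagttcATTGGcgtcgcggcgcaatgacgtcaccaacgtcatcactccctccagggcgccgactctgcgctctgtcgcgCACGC
Abcf2: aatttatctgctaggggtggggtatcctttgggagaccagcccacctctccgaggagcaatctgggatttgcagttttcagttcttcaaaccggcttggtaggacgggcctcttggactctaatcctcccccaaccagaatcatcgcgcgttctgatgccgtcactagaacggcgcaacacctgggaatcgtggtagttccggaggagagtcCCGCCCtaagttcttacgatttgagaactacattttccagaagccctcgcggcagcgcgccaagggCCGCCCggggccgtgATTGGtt
Among the genes that fell Abcb1a held no match, while Abca8a and its neighbour Abca8b each held the E box, a palindrome. Abca8b also held a GC box on the opposite strand. Among those that rose Abca13 held 2 CCAAT boxes, 1 on each strand, and GCGTG on the opposite strand. Abce1 held CCAAT and GCGTG, both on the opposite strand, and Abcf2 held 2 GC boxes and 1 CCAAT, so that the GC box stood in genes of both directions. The E box stood in 5 of the 35 ABC promoters in the RefSeq table (14.3%) and in 7.24% of 27025 promoters of all genes, and GGGCGG in 48.6% of ABC promoters and 35.9% of all. CCAAT was found in 37.1% of ABC and 37.9% of all promoters, and GCGTG in 31.4% and 32.5%. TATAAA stood in 17.1% of ABC and 14.2% of all promoters, AGGTCA in 14.3% and 16%, and TTCNNNGAA in 5.71% and 8.47%. A match is a description of the letters, not a site.

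Abcb1a, which encodes the P-glycoprotein of the intestinal luminal membrane, had the largest difference of any ABC gene in both comparisons. It read 8.66, 9.39 and 9.53 in 9-week conventional knockouts, against 11.17, 10.95 and 11.22 in 9-week wild types. It read 7.88, 9.70 and 6.81 in 12-week SPF knockouts, against 11.68, 11.34 and 10.81 in 12-week wild types. Every knockout array of these groups lay below every wild-type array of its age, and replicate 2 of the 12-week SPF knockouts was the highest of its group by over 1 log2 unit. The log2 difference was -1.92 ± 0.53 (SE, limma adjusted p = 0.0109) at 9 weeks in conventional knockouts and -3.15 ± 0.53 (adjusted p = 0.000171) at 12 weeks in SPF knockouts. Without replicate 1 of the 9-week conventional knockouts the difference of Abcb1a was -1.65, with a limma adjusted p of 0.0694.

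The other groups of knockouts lay between. Abcb1a read 10.48, 10.81 and 10.20 in 7-week conventional knockouts and 11.18, 11.46 and 10.99 in 7-week SPF knockouts, against 11.42, 11.66 and 11.74 in 7-week wild types. The 7-week conventional knockouts lay wholly below the wild types, with a difference of -1.11 ± 0.53 that did not pass the limma test (adjusted p = 0.441). In 12-week conventional knockouts Abcb1a read 10.42, 10.96 and 10.83, which overlaps the 12-week wild types (difference -0.54, limma adjusted p = 0.665). In 9-week SPF knockouts it read 10.97, 10.31 and 8.45, with the lowest value in replicate 3, the array that stood apart, and the difference from wild types was -1.21 ± 0.53 (limma adjusted p = 0.134). In order of group mean Abcb1a ran from 12-week SPF knockouts (8.13 ± 1.46) through 9-week conventional (9.19 ± 0.47), 9-week SPF (9.91 ± 1.31), 7-week conventional (10.50 ± 0.30) and 12-week conventional knockouts (10.74 ± 0.28), and then 9-week wild types (11.12 ± 0.14), 7-week SPF knockouts (11.21 ± 0.24), 12-week wild types (11.28 ± 0.44) and 7-week wild types (11.61 ± 0.17), all SD with n = 3. Neighbours in this order differed by less than the larger of their 2 SDs, except 12-week conventional knockouts and 9-week wild types. The other probe set of Abcb1a gave -2.24 ± 0.49 and -3.52 ± 0.49 in the 2 comparisons. Abcb1b, the other mouse P-glycoprotein gene, and Abcb4, the phosphatidylcholine pump of bile, lie near it on chromosome 5 and differed by -0.06 and -0.19 in 9-week conventional knockouts and by 0.01 and 0.10 in 12-week SPF knockouts, none called. The other, dimmer probe set of Abcb1b rose by 0.71 ± 0.15 in 9-week conventional knockouts (limma adjusted p = 0.00248 over all probe sets). In 12-week SPF knockouts that probe set differed by 0.27, not called.

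**Figure D3:**
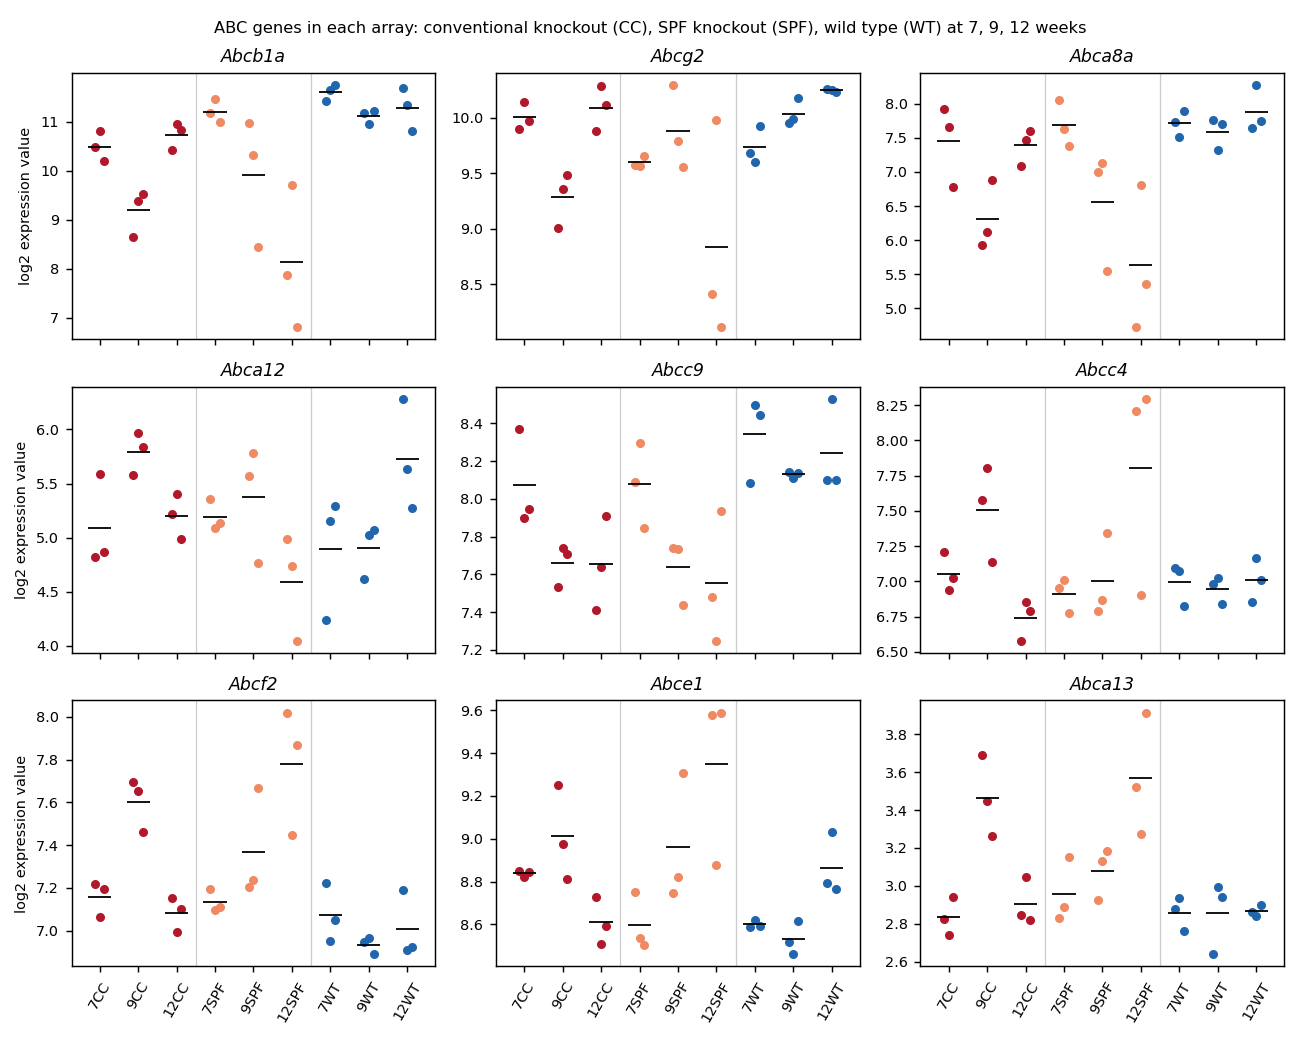
Log2 expression values of 9 ABC genes, 1 panel each, with 1 point per array and the mean of each group of 3 as a black line. Conventional knockouts are dark red, SPF knockouts orange and wild types blue, each at 7, 9 and 12 weeks. Abcb1a, Abcg2 and Abca8a are low in 9-week conventional and 12-week SPF knockouts, and Abcf2 and Abca13 are high there.

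Abcg2, the other broad drug pump of the luminal membrane, fell in 12-week SPF knockouts. It read 8.41, 9.98 and 8.12 there, against 10.26, 10.25 and 10.23 in 12-week wild types. The 3 wild-type arrays lay within 0.03 of each other, and replicate 2 of the SPF knockouts came close to them without overlap. The log2 difference of Abcg2 was -1.41 ± 0.29 (limma adjusted p = 0.000722). In 9-week conventional knockouts Abcg2 read 9.01, 9.36 and 9.49, against 9.95, 9.99 and 10.17 in 9-week wild types. The groups did not overlap, and the difference of -0.75 ± 0.29 did not pass (limma adjusted p = 0.0592). At 7 weeks Abcg2 read 9.89, 10.14 and 9.97 in conventional knockouts, 9.57, 9.56 and 9.66 in SPF knockouts and 9.68, 9.60 and 9.92 in wild types, with both kinds of knockouts overlapping the wild types.

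Of the 10 ABCC genes, 2 rose and 4 fell in 12-week SPF knockouts, beside 18.2% and 16.6% of all genes, and none was called in 9-week conventional knockouts, beside 24%. Abcc4, which exports cyclic nucleotides and prostaglandins, read 8.21, 6.90 and 8.29 in 12-week SPF knockouts, against 6.85, 7.16 and 7.01 in 12-week wild types. Replicate 2 lay among the wild types and the others above them. The difference was 0.79 ± 0.24 (limma adjusted p = 0.0137), and without replicate 2 it was 1.24. The call on Abcc4 was lost without SPF replicate 1 (adjusted p = 0.101) or 3 (0.114) or wild-type replicate 1 (0.0503). In 9-week conventional knockouts Abcc4 differed by 0.56, not called.

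Abcc2, the luminal exporter of conjugates, fell by 0.74 ± 0.25 in 12-week SPF knockouts (limma adjusted p = 0.0252), with 2.74, 3.32 and 2.79 there, against 3.62, 4.33 and 3.14 in wild types. The groups of Abcc2 overlapped, and the call was lost without wild-type replicate 2 (difference -0.43, adjusted p = 0.202) and without SPF replicates 1 or 3 (0.106 and 0.0929). Abcc5, a cyclic nucleotide exporter, fell by 0.52 ± 0.12, and Abcc6, whose human gene is mutated in pseudoxanthoma elasticum, fell by 0.50 ± 0.17. Its call was lost without SPF replicates 1 (adjusted p = 0.0667) or 3 (0.17) or wild-type replicate 3, where Abcc6 differed by -0.33 (adjusted p = 0.18). The signals of Abcc2 and Abcc6 were dim, with means of 3.41 and 3.76 over all arrays. Abcc1, an exporter of glutathione conjugates and leukotriene C4, and Abcc3, which exports bile acids and glucuronides at the basolateral membrane, differed by 0.32 and -0.28 in 12-week SPF knockouts, neither called.

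Abcc8 and Abcc9 encode sulphonylurea receptors, the regulatory subunits of ATP-sensitive potassium channels. They were called in opposite directions in 12-week SPF knockouts, by the probe sets that stand for them. Abcc9, the form found in smooth muscle, read 7.48, 7.25 and 7.93 in 12-week SPF knockouts, against 8.10, 8.53 and 8.10 in 12-week wild types, with no overlap. It fell by 0.69 ± 0.18 (limma adjusted p = 0.00407). In 9-week conventional knockouts Abcc9 read 7.53, 7.74 and 7.71, against 8.14, 8.11 and 8.14, also without overlap, a difference of -0.47 that did not pass (limma adjusted p = 0.0542). Abcc8 rose by 0.62 ± 0.22 in 12-week SPF knockouts, with 5.96, 5.32 and 5.35 against 5.34, 4.70 and 4.73 in wild types. The Abcc8 groups overlapped, and its call was lost without SPF replicate 1 (difference 0.41, adjusted p = 0.197) or wild-type replicates 2 (0.123) or 3 (0.11). In 9-week conventional knockouts Abcc8 differed by 0.10, not called. Its other, dimmer probe set differed by 0.38 in 9-week conventional and 0.22 in 12-week SPF knockouts, neither called. The channel partners of both, Kcnj8 and Kcnj11, were not called in either comparison.

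Of the 14 ABCA genes, which encode lipid transporters, 2 rose and 2 fell in 9-week conventional knockouts (24% of all genes called), and 1 rose and 5 fell in 12-week SPF knockouts (34.8%). Abca8a, a lipid transporter of little known cargo, read 5.92, 6.12 and 6.89 in 9-week conventional knockouts, against 7.76, 7.32 and 7.70 in 9-week wild types. It read 4.73, 6.81 and 5.36 in 12-week SPF knockouts, against 7.64, 8.27 and 7.75 in 12-week wild types. In neither pair did the groups overlap. Abca8a fell by 1.28 ± 0.42 (limma adjusted p = 0.0303) in 9-week conventional knockouts and fell by 2.25 ± 0.42 (adjusted p = 0.000407) in 12-week SPF knockouts. The 9-week call was lost without conventional replicates 1 or 2 or wild-type replicates 1 or 3, with adjusted p between 0.0834 and 0.14. At 9 weeks the SPF knockouts read 7.00, 7.12 and 5.55 for Abca8a, with replicate 3 the lowest as for Abcb1a.

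Abca8a lies in a row of 5 related genes on chromosome 11, with Abca8b, Abca9, Abca6 and Abca5, and the sizes of difference ran widely along the row. In 12-week SPF knockouts Abca8b fell by 0.55 ± 0.18 (limma adjusted p = 0.0212) and Abca5 fell by 0.82 ± 0.20, while the differences of Abca9 (-0.51) and Abca6 (-0.12) were not called. Abca5 read 4.77, 4.81 and 4.80 in 12-week SPF knockouts, against 5.65, 5.98 and 5.22 in wild types, with no overlap. In 9-week conventional knockouts Abca8b fell by 0.53 ± 0.18, to 3.49, 3.82 and 3.53 against 4.01, 4.54 and 3.88 in wild types. The calls of Abca8b rested on single arrays: without wild-type replicate 2 the 9-week difference was -0.33 (adjusted p = 0.23), and without SPF replicate 3 the 12-week difference was -0.34 (0.179). It was also lost without 12-week wild-type replicate 2 (0.102) and without 9-week conventional replicates 1 (0.143) or 3 (0.0837).

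Abca12, which loads ceramides into the lamellar granules of skin keratinocytes, went in opposite directions in the 2 comparisons. It read 5.57, 5.97 and 5.84 in 9-week conventional knockouts, against 4.62, 5.03 and 5.08 in 9-week wild types. It read 4.98, 4.74 and 4.05 in 12-week SPF knockouts, against 6.28, 5.63 and 5.28 in 12-week wild types. Neither pair overlapped, and the 12-week wild types had the highest mean of the wild types (5.73, against 4.91 at 9 weeks and 4.89 at 7 weeks). Abca12 rose by 0.89 ± 0.30 (limma adjusted p = 0.0356) in the first and fell by 1.14 ± 0.30 (adjusted p = 0.00537) in the other. The 9-week call on Abca12 was lost on leaving out any 1 of the 6 arrays, with adjusted p between 0.0546 and 0.136. The difference between the 2 effects, added after the data were seen, was 2.02 ± 0.43 with a limma adjusted p of 0.296, so it did not pass. The conventional knockouts of 9 weeks differed from SPF knockouts of 12 weeks by 1.20 (limma adjusted p = 0.503).

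Abca13 rose in both comparisons from a dim signal. It read 3.69, 3.45 and 3.26 in 9-week conventional knockouts, against 2.64, 2.99 and 2.94 in 9-week wild types. It read 3.52, 3.28 and 3.91 in 12-week SPF knockouts, against 2.86, 2.84 and 2.90 in 12-week wild types. The groups did not overlap in either, and the differences were 0.61 ± 0.14 (limma adjusted p = 0.0036) and 0.70 ± 0.14 (adjusted p = 0.000594). The other probe set of Abca13 differed by 0.01 and 0.60. Abca3, the lipid pump of lung surfactant, fell by 0.37 ± 0.14 in 12-week SPF knockouts, a call lost without SPF replicates 1 (adjusted p = 0.0857) or 3 (0.198) or wild-type replicates 1 (0.0618) or 3 (0.161). Abca1, which loads cholesterol onto apolipoprotein A-I, differed by 0.15 and -0.22 in the 2 comparisons, not called.

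The sterol pumps of the ABCG group gave small calls in 9-week conventional knockouts. Abcg1, which moves cholesterol to high-density lipoprotein in macrophages, read 7.20, 7.05 and 6.64 there, against 6.22, 6.39 and 6.20 in 9-week wild types. The groups did not overlap, and Abcg1 rose by 0.69 ± 0.20 (limma adjusted p = 0.0167). Its call was lost without conventional replicates 1 (adjusted p = 0.102) or 2 (0.0598) or wild-type replicates 1 (0.0527) or 3 (0.0545). In 12-week SPF knockouts Abcg1 read 6.72, 6.22 and 6.70, against 5.84, 6.11 and 6.67 in wild types, which overlap, and its difference of 0.34 was not called. The other, dimmer probe set of Abcg1 differed by 0.15 in 9-week conventional knockouts (limma adjusted p = 0.483 over all probe sets). It differed by 0.12 in 12-week SPF knockouts, and neither was called. Abcg4, a related cholesterol exporter known from brain, fell by 0.35 ± 0.11 (limma adjusted p = 0.0265) in 9-week conventional knockouts, lost without conventional replicates 1 (0.155) or 2 (0.0913) or wild-type replicates 2 (0.0746) or 3 (0.111).

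Abcg5 and Abcg8, neighbours on chromosome 17, form the pump that returns plant sterols to the lumen. Abcg8 fell by 0.42 ± 0.15 in 9-week conventional knockouts (limma adjusted p = 0.0458), with 5.08, 5.11 and 5.29 against 5.68, 5.49 and 5.58 in wild types. The groups of Abcg8 did not overlap, yet its call was lost without any 1 of the arrays but conventional replicate 3, with adjusted p between 0.0638 and 0.155. Abcg5 read 4.62, 5.66 and 4.01 in 9-week conventional knockouts, against 6.52, 6.20 and 5.34 in wild types. The groups overlapped, and the difference of -1.26 ± 0.55 did not pass (limma adjusted p = 0.103). Replicates of Abcg5 were also far apart in 12-week wild types (4.74, 5.47 and 6.90). In 12-week SPF knockouts Abcg5 and Abcg8 differed by 0.14 and -0.02, neither called.

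The called genes of organelle membranes changed by less than 1 log2 unit. Abcb10, a mitochondrial transporter needed for haem synthesis, rose by 0.41 ± 0.08 in 9-week conventional knockouts (limma adjusted p = 0.00174), with 7.55, 7.52 and 7.46 against 7.14, 7.15 and 7.00 in wild types. The groups did not overlap, and in 12-week SPF knockouts its difference was 0.11, not called. Another probe set of Abcb10 gave 0.51 ± 0.15 in 9-week conventional knockouts and 0.48 ± 0.15 in 12-week SPF knockouts (limma adjusted p = 0.0213 and 0.0187 over all probe sets). Abcb6, linked to porphyrin transport, fell by 0.61 ± 0.15 in 12-week SPF knockouts, with 8.11, 8.29 and 7.99 against 8.94, 8.86 and 8.42 in wild types, and differed by -0.12 in 9-week conventional knockouts. Abcd3 fell by 0.40 ± 0.14 in 12-week SPF knockouts (limma adjusted p = 0.0327). Without SPF replicate 3 the difference of Abcd3 was -0.22 (adjusted p = 0.258), and the call was also lost without wild-type replicates 1 (0.123) or 3 (0.0591). Abcd2, another peroxisomal member, and Abcd4, the lysosomal cobalamin transporter, differed by 0.29 and 0.13 there, and Abcb8, a mitochondrial member, by 0.25, none called.

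Of the 4 soluble members Abce1 and Abcf2 rose in both comparisons and Abcf1 rose in 12-week SPF knockouts, by the probe sets that stand for them. Of all genes 14.2% were called higher in 9-week conventional and 18.2% in 12-week SPF knockouts. Abcf2, a soluble member without a membrane part, read 7.69, 7.66 and 7.46 in 9-week conventional knockouts, against 6.95, 6.97 and 6.89 in 9-week wild types. It read 8.02, 7.45 and 7.87 in 12-week SPF knockouts, against 7.19, 6.91 and 6.92 in 12-week wild types. Neither pair overlapped. Abcf2 rose by 0.67 ± 0.13 (limma adjusted p = 0.00122) and 0.77 ± 0.13 (adjusted p = 0.000195). The other, dimmer probe set of Abcf2 differed by 0.03 and 0.21, neither called.

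Abce1, which splits ribosomes after termination, read 9.25, 8.98 and 8.81 in 9-week conventional knockouts, against 8.52, 8.46 and 8.62 in 9-week wild types, with no overlap. It read 9.58, 8.88 and 9.59 in 12-week SPF knockouts, against 8.79, 9.03 and 8.77 in 12-week wild types, where replicate 2 of the knockouts fell among the wild types. Abce1 rose by 0.48 ± 0.16 (limma adjusted p = 0.0309) and 0.49 ± 0.16 (adjusted p = 0.0208). The 9-week call on Abce1 was lost without conventional replicates 1 or 2 or wild-type replicates 1 or 2 (adjusted p between 0.0648 and 0.181), and the 12-week call without SPF replicates 1 or 3 or wild-type replicates 1 or 3 (0.061 to 0.127). Abcf1, an initiation-linked member, rose by 0.41 ± 0.12 in 12-week SPF knockouts (limma adjusted p = 0.0105), and all 6 of its probe sets were above 0 there (0.16 to 0.63). Its call was lost without SPF replicates 1 (adjusted p = 0.0744) or 3 (0.0659) or wild-type replicate 2 (0.0573). In 9-week conventional knockouts Abcf1 differed by 0.26, not called, and its other probe sets by -0.02 to 0.47. Those at 0.33 and 0.47 were called over all probe sets (limma adjusted p = 0.0318 and 0.0229). Abcf3, the remaining soluble member, differed by 0.27 and 0.22, not called. Its other probe sets differed by 0.01 and 0.04 in 9-week conventional knockouts. In 12-week SPF knockouts they differed by 0.36 (limma adjusted p = 0.0219 over all probe sets) and 0.10.

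**Figure D4:**
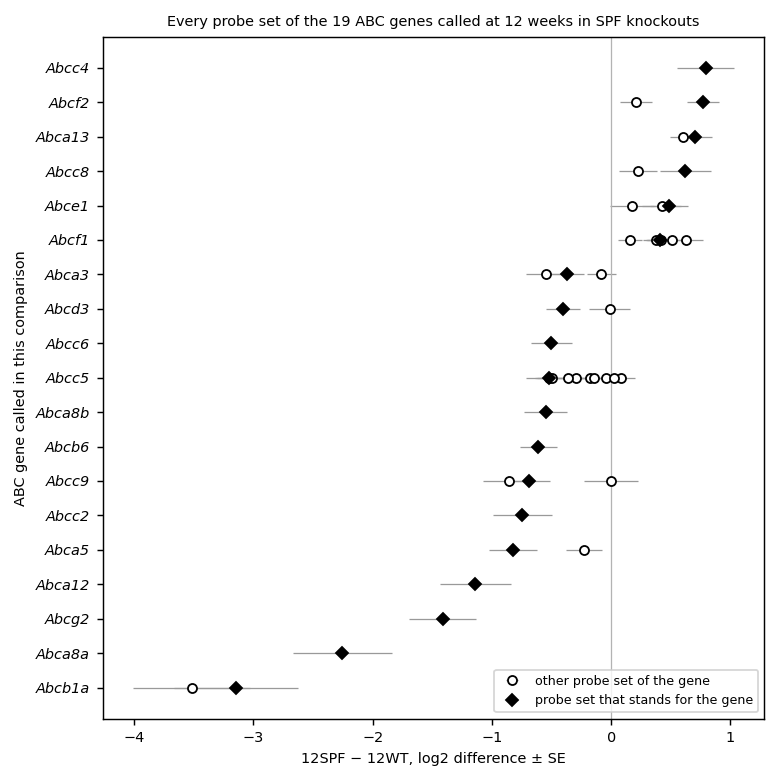
Log2 difference ± SE of every probe set of the 19 ABC genes called in 12-week SPF knockouts against 12-week wild types, 1 row per gene. Filled diamonds are the probe sets that stand for the genes and open circles the others. Both probe sets of Abcb1a lie far left (-3.15 and -3.52), while those of Abcc5 run from -0.52 to 0.08.

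Leaving out single arrays ended calls of large and small size. Of the 11 calls in 9-week conventional knockouts, those of Abca13, Abcb10 and Abcf2 held without any 1 array. Of the 19 in 12-week SPF knockouts, 10 held so: Abca12, Abca13, Abca5, Abca8a, Abcb1a, Abcb6, Abcc5, Abcc9, Abcf2 and Abcg2. When limma was fitted to only the 6 arrays of 12-week SPF knockouts and wild types, 4 calls were left, Abcf2 higher and Abca5, Abca8a and Abcb1a lower.

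The other 20 members passed in none of the 20 comparisons. Besides Abca1, Abca16, Abcb1b, Abcb4, Abcb8, Abcc1, Abcc3, Abcd2, Abcd4, Abcf3, Abcg5 and Abca6, described above, they are Abca2, Abca4, Abca14, Abcb9, Abcb11, Abcc10, Abcc12 and Abcg3. The differences of the 20 in 9-week conventional knockouts ran from -1.26 (Abcg5) to 0.33 (Abcg3), and in 12-week SPF knockouts from -0.28 (Abcc3) to 0.32 (Abcc1).

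Several lists of partner genes were set beside the members. Of all genes 24% were called in 9-week conventional knockouts (14.2% higher and 9.86% lower). In 12-week SPF knockouts 34.8% were called (18.2% higher and 16.6% lower). Of 3 ABC superfamily genes with other symbols, Tap1 and Tap2, the peptide pump that loads class I molecules, rose in both comparisons. Tap1 rose by 3.14 ± 0.29 in 9-week conventional and 3.46 ± 0.29 in 12-week SPF knockouts and Tap2 by 1.31 and 1.56, larger rises than that of any of the 45 members. Cftr, the chloride channel and the other gene of that list, was named after its values were seen: it differed by -0.27 (limma adjusted p = 0.475) in 9-week conventional and fell by 0.97 ± 0.25 (adjusted p = 0.00452) in 12-week SPF knockouts. Of 11 translation partners of Abce1 and the ABCF genes measured, 5 rose and none fell in 9-week conventional knockouts (median 0.21), and 6 rose and 1 fell in 12-week SPF knockouts (median 0.38). No translation partner passed a log2 difference of 1. Of 10 mitochondrial iron and haem partners, 3 rose in 9-week conventional knockouts, and 4 rose and 1 fell in 12-week SPF knockouts, where Slc25a28, a mitochondrial iron importer, rose by 1.13.

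Partners in lipid and bile acid transport had both rises and falls, beside 24% of all genes called in 9-week conventional and 34.8% in 12-week SPF knockouts. Of 11 peroxisome partners 6 fell and 1 rose in 12-week SPF knockouts, with differences of -1.63 in Ehhadh, an enzyme of peroxisomal fatty acid oxidation, and -1.17 in Cat, catalase, while 1 fell in 9-week conventional knockouts. Of 8 bile acid and organic anion carriers 4 fell in 12-week SPF knockouts (median -0.73). These included Slc10a2, the bile acid importer (-1.75), Slc51a, a subunit of the basolateral bile acid exporter (-1.95), and Slco2b1 (-1.10). In 9-week conventional knockouts none of that list fell and 2 rose, among them Slc51b, the other subunit, by 1.50. Of 17 regulators of ABC genes 4 fell and 3 rose in 12-week SPF knockouts, with differences of -2.45 ± 0.50 in Ppara, a lipid sensor, and -1.02 ± 0.22 in Vdr, the vitamin D receptor, and 1 rose and 1 fell in 9-week conventional knockouts. Of 11 sterol partners 3 fell and 2 rose in 12-week SPF knockouts, with differences of -1.26 in Mylip, which marks the LDL receptor for degradation, and -1.12 in Cyp27a1, a sterol hydroxylase, and 1 rose and 1 fell in 9-week conventional knockouts. In the other comparisons with wild types the partner genes called past 1 log2 unit were Apoc1, an apolipoprotein of the sterol list, at -2.14 in 7-week conventional knockouts, Tap1 at 1.61 in 12-week conventional knockouts, and Tap1 (2.10), Slc51b (1.30) and the bile acid receptor Nr1h4 (1.00) in 9-week SPF knockouts. Between the 12-week knockouts Tap1 was lower in conventional ones (-1.85), and Ppara (2.11), Vdr (1.02), Ehhadh (1.56), Cat (1.09), Slco2b1 (1.18), Cyp27a1 (1.13) and Mylip (1.12) were higher.

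Many markers of cell types were called in the same groups. Of all genes 14.2% were called higher in 9-week conventional and 18.2% in 12-week SPF knockouts. Of 12 macrophage and monocyte markers 11 rose in both comparisons (medians 1.57 and 1.71), and the mean of the list lay between 7.91 and 8.51 in 9-week conventional knockouts, against 6.66 to 7.11 in 9-week wild types. It lay between 7.66 and 8.85 in 12-week SPF knockouts, against 6.72 to 6.87 in 12-week wild types. Of 8 neutrophil markers 4 and 6 rose, with list means of 5.39 to 6.24 in 9-week conventional knockouts, against 3.63 to 3.77 in wild types, and 4.76 to 7.65 in 12-week SPF knockouts, against 3.68 to 3.73 in wild types. Replicate 2 of the 12-week SPF knockouts, with the highest Abcb1a and Abcg2 of its group, was the lowest of it for both lists. All 7 measured markers of dividing cells rose in both. Of 6 measured T cell markers 4 and 5 rose, with list means of 6.27 to 6.62 in 9-week conventional knockouts, against 5.33 to 5.52 in wild types, and 5.69 to 6.71 in 12-week SPF knockouts, against 5.30 to 5.45 in wild types. The 9-week SPF knockouts shared part of this. Their dividing cell mean lay between 8.82 and 9.45, against 7.77 to 8.06 in 9-week wild types. Their macrophage mean (7.05 to 7.66) overlapped that of wild types. The neutrophil mean was 3.73 and 3.90 in their replicates 1 and 2 and 5.46 in replicate 3.

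Smooth muscle markers fell, 8 of 10 in 9-week conventional and 10 of 10 in 12-week SPF knockouts, with list means of 10.55 to 10.63 against 11.21 to 11.34, and 9.35 to 10.63 against 11.02 to 11.13. Of all genes 9.86% and 16.6% were called lower in these comparisons. Abcc9 differed by -0.47 (not called) and -0.69 (called) in these comparisons. Its other probe sets differed by -0.63 and -0.06 in 9-week conventional and by -0.86 and -0.004 in 12-week SPF knockouts. The mean of 6 pericyte markers overlapped that of wild types in both. It lay between 7.09 and 7.36 in 9-week conventional knockouts, against 7.16 to 7.37 in wild types. In 12-week SPF knockouts it lay between 6.73 and 6.97, against 6.88 to 7.15. Called pericyte markers went both ways there, with differences of -1.48 in Rgs5 and 1.10 in Anpep, so the mean hides changes of single markers. Of 7 measured markers of enteric neurons and glia 3 and 4 fell, with list means of 5.30 to 5.65 in 9-week conventional knockouts, against 5.94 to 6.08 in wild types, and 5.06 to 5.37 in 12-week SPF knockouts, against 5.77 to 5.96 in wild types. Of 8 enteroendocrine and tuft cell markers 6 and 7 fell, and of 8 goblet cell markers 2 and 4. The mean of the pancreatic acinar list lay between 4.72 and 4.89 in 9-week conventional knockouts, against 5.39 to 5.67 in wild types. In 12-week SPF knockouts it lay between 4.63 and 6.12, against 5.11 to 5.44 in wild types. Of 12 epithelial markers, which bear on Abcb1a, Abcg2 and Abcc2, 1 rose and 2 fell in each comparison. Slc26a3 fell in both (-1.36 and -1.49), and Car1 fell in 12-week SPF knockouts (-1.39). The epithelial mean lay between 12.07 and 12.20 in 9-week conventional knockouts, against 12.09 to 12.19 in wild types, and between 11.57 and 12.16 in 12-week SPF knockouts, against 11.91 to 12.18 in wild types. The part of cell makeup in the ABC differences was not tested, and in whole colon fewer cells of a type and less RNA per cell cannot be told apart.

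**Figure D5:**
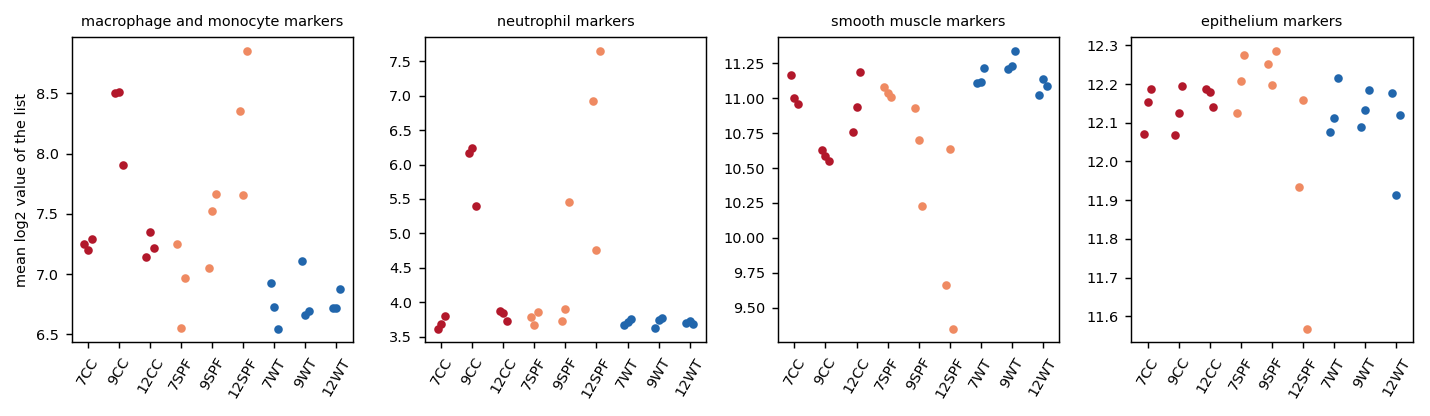
Mean log2 value of 4 lists of cell type markers (12 macrophage and monocyte, 8 neutrophil, 10 smooth muscle and 12 epithelial genes), 1 point per array, in conventional knockouts (dark red), SPF knockouts (orange) and wild types (blue) at 7, 9 and 12 weeks. The vertical axes differ. Macrophage and neutrophil lists are high and the smooth muscle list is low in 9-week conventional and 12-week SPF knockouts. In 9-week SPF knockouts the smooth muscle list is also low (10.23 to 10.93, against 11.21 to 11.34 in 9-week wild types), and the neutrophil list is high in replicate 3.

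No difference from wild types was called in any ABC gene at 7 weeks or in 12-week conventional knockouts. In 7-week conventional knockouts 0 of 45 passed beside 0.506% of all genes, and the unadjusted p of limma was under 0.05 for 1 higher and 4 lower ABC genes. In 7-week SPF knockouts 0 of 45 passed beside 0.055% of all genes, with 1 higher at an unadjusted p under 0.05. In 12-week conventional knockouts 0 of 45 passed beside 0.451% of all genes, with 3 above and 3 below wild types at an unadjusted p under 0.05. There the largest size of difference was that of Abcc9, -0.59 (limma adjusted p = 0.111). In 9-week SPF knockouts 2 of 45 (4.44%) passed, 1 higher and 1 lower, beside 11.8% of all genes (7.41% higher and 4.43% lower). Abca5 fell by 0.74 ± 0.20 (limma adjusted p = 0.0226), with 5.20, 4.86 and 4.20 against 5.50, 5.47 and 5.51 in wild types, and Abcf2 rose by 0.43 ± 0.13 (adjusted p = 0.0349). Without 12-week wild-type replicate 1, 1 ABC gene was called in 12-week conventional knockouts. Both 9-week SPF calls were lost without replicate 3 of the 9-week SPF knockouts (Abca5 -0.47, Abcf2 0.28) and without any 1 of the wild-type arrays, which left 0 ABC calls.

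Conventional and SPF knockouts of the same age were compared to ask what housing changed among knockouts. At 12 weeks 13 of 45 ABC genes (28.9%) passed beside 24.6% of all genes, 8 higher and 5 lower in conventional knockouts (11.1% and 13.6% of all genes). This comparison shares the 12-week SPF arrays with that against wild types. Abcb1a was higher in 12-week conventional knockouts by 2.60 ± 0.53 (10.42, 10.96 and 10.83, against 7.88, 9.70 and 6.81 in SPF knockouts, limma adjusted p = 0.00263). Abca8a was higher by 1.76 ± 0.42, with 7.09, 7.47 and 7.60 in conventional knockouts, against 4.73, 6.81 and 5.36 in SPF knockouts and no overlap. Abcg2 was higher by 1.26 ± 0.29, with 9.88, 10.28 and 10.11 for Abcg2 in conventional knockouts, a range that holds the 9.98 of SPF replicate 2. Abca3, Abca8b, Abca9, Abcc5 and Abcg4 were higher by 0.33 to 0.59. Abcc4 was lower (difference -1.06 ± 0.24; 6.58, 6.85 and 6.79, against 8.21, 6.90 and 8.29), without overlap, and so were Abce1 (-0.74), Abcf2 (-0.70), Abca13 (-0.67) and Abcf1 (-0.51).

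The 7 calls of Abca13, Abcb1a, Abcc4, Abce1, Abcf1, Abcf2 and Abcg2 between the 12-week knockouts held without any 1 array. Abca8a was lost without SPF replicate 1 (1.30, limma adjusted p = 0.0510), without which Abca9 stood at 0.29, and Abca8b stood at 0.28 without SPF replicate 3. The calls of Abca3, Abca8b, Abca9, Abcc5 and Abcg4 were each lost without 1 of 4 or 5 arrays in turn, with a highest adjusted p between 0.136 and 0.332. Counts ran from 8 without SPF replicate 1 or 3 to 18 without SPF replicate 2. When limma was fitted to only the 6 arrays compared, no call was left. At 7 weeks no ABC gene was called between the kinds of knockouts (0.269% of all genes, and 1 lower at an unadjusted p under 0.05 in limma). At 9 weeks none was called either, among ABC genes or all genes (0%), with 7 higher and 1 lower ABC genes at an unadjusted p under 0.05.

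Ages were compared within each kind of mouse. In conventional knockouts 3 of 45 ABC genes (6.67%) rose at 9 against 7 weeks, beside 10.4% of all genes called and 5.34% higher: Abca13 by 0.63 (limma adjusted p = 0.00784), Abcg1 by 0.68 (adjusted p = 0.0351) and Abcf2 by 0.44. At 12 against 9 weeks 4 (8.89%) fell, beside 7.34% of all genes called and 5.4% lower. The differences were -0.89 for Abcg1 (limma adjusted p = 0.0135), -0.56 for Abca13, -0.52 for Abcf2 and -0.29 for Abca7, a lipid transporter linked to phagocytosis (adjusted p = 0.0361). Abcg1 read 6.28, 6.20 and 6.36 at 7 weeks, 7.20, 7.05 and 6.64 at 9 weeks and 6.16, 6.17 and 5.89 at 12 weeks in conventional knockouts, so that its 9-week arrays lay above those of both other ages. Both comparisons share the 9-week arrays. Without replicate 1 of these no ABC call was left in either, and without replicate 2 there was 1 at 9 against 7 weeks and 0 at 12 against 9 weeks. Without replicate 3 there were 5 and 7. Without 1 array of the 7-week or the 12-week conventional knockouts 1 or 2 and 0 to 2 calls were left.

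In SPF knockouts no ABC gene was called at 9 against 7 weeks (0.726% of all genes, with 1 up and 5 down at an unadjusted p under 0.05 in limma) or at 12 against 9 weeks (0% of all genes, with 7 higher and 8 lower). At 12 against 9 weeks 11 ABC genes were called without replicate 3 of the 9-week SPF knockouts and 14 without replicate 2 of the 12-week SPF knockouts. The shares of all genes called without these arrays were not counted, so these counts say nothing particular to ABC genes. In wild types none was called at 9 against 7 weeks (0.0055% of all genes, and no ABC gene at an unadjusted p under 0.05 in limma) or at 12 against 9 weeks (0% of all genes, with 3 higher and 3 lower). Abcb1a in SPF knockouts had means of 11.21 at 7 weeks, 9.91 at 9 weeks and 8.13 at 12 weeks, with SDs of 1.31 and 1.46 at the later ages.

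Whether the differences from wild types themselves changed with age was tested directly. No ABC gene passed for the change of the difference in conventional knockouts between 7 and 9 weeks, beside 2.01% of all genes, with 4 above and 2 below 0 at an unadjusted p under 0.05 in limma. The smallest adjusted p was that of Abca13 (0.63, adjusted p = 0.0835). Between 9 and 12 weeks none passed beside 1.82% of all genes, with 2 above and 9 below 0 at an unadjusted p under 0.05, and the smallest adjusted p was that of Abcb10 (-0.43, limma adjusted p = 0.0605). For SPF knockouts between 9 and 12 weeks none passed among ABC genes or all genes (0%), with 2 above and 6 below 0 at an unadjusted p under 0.05 and the smallest adjusted p at Abca12 (-1.60, limma adjusted p = 0.235). For the difference between the 9-week conventional and 12-week SPF effects, 0% of all genes and no ABC gene passed, with 5 higher ABC genes at an unadjusted p under 0.05. Leaving out single arrays gave calls here too: 6 ABC genes for the conventional change from 9 to 12 weeks without 9-week conventional replicate 3 and 2 without 12-week wild-type replicate 3, 9 for the SPF change without 12-week SPF replicate 2, and 2 for the difference between the 2 effects without that array. For the conventional change from 7 to 9 weeks 1 was called without 9-week conventional replicate 3. Shares of all genes were not counted with arrays left out, so these counts cannot be set beside them.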

How the data were processed

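RNA of full-thickness mouse colon was labelled with biotin and hybridized to Affymetrix arrays, 1 array per sample. The authors deposited log2 values, 1 for each probe set on each array, which they had normalized with affyPLM, per the series' design text. A rat array is named in that text, although the identifiers are of mouse probe sets. How background was handled and probes were summarized is not stated there.

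Values were used as deposited. Of 45101 probe sets, 64 controls, 932 with several symbols and 9160 with none were left out. The other 34945 gave 18193 genes, each read by its probe set with the highest mean over 27 arrays. The 45 ABC genes have 92 probe sets, and 26 of them have more than 1. Gene symbols came from the platform annotation, and chromosomes and promoters from RefSeq (GRCm38.p6). RefSeq lists 50 such symbols, and the 5 others were not analysed here.

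A model with 9 group means was fitted to all 27 arrays with limma 3.58.1 in R 4.3.3 (18 residual degrees of freedom) with eBayes. Tests are two-sided, adjusted over all genes of each of 20 comparisons, and called under 0.05. The script was tested on simulated data. In each comparison all called ABC genes are named. Every array's value is given for those called at a difference of at least 1 against wild types in 9-week conventional or 12-week SPF knockouts. Partner genes are named where called at a difference of at least 1, up to 4 per list, in comparisons with wild types and between the 12-week knockouts. The members and lists were chosen with earlier results of these data known. The alternatives were a replicate block, quantile normalization again, median centring, no genes below the 40% point of mean signal, testing all probe sets, averaging the probe sets of each gene, array weights, an intensity trend, only the arrays compared, and each array left out. Figures were drawn in matplotlib 3.10.9, and tables made in Python 3.11.15 (pandas 2.3.3, NumPy 2.4.6).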

Additional observations from a re-analysis of the deposited data

How the results depend on the processing

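No direction of the 52 named calls turned in 764 alternatives. Of these calls, 20 held without any 1 array and 14 in every other setting. Below, ABC calls are given by comparison. Shares of all genes were not counted in these settings or with arrays left out, so the counts say nothing particular to ABC genes. With array weights there were 19 in 9-week conventional knockouts against wild types, 1 at 7 weeks, 15 in 9-week SPF knockouts, 1 and 10 between conventional and SPF knockouts at 7 and 9 weeks, 12 and 15 in conventional knockouts at 9 against 7 and 12 against 9 weeks, 8 and 22 likewise in SPF knockouts, 6 in 9-week conventional against 12-week SPF knockouts, and 8, 11 and 9 for the 3 changes of a difference with age (conventional 7 to 9, 9 to 12, SPF 9 to 12 weeks). With only the arrays compared there were 1 in 7-week conventional knockouts and 4 in 12-week SPF knockouts against wild types, 0 between the 12-week knockouts, 5 and 9 in conventional knockouts at 9 against 7 and 12 against 9 weeks, and 3 and 5 for the conventional changes. Without the dimmest 40% of genes the second of these had 1. Of the named calls 33 of 52 were lost with only the arrays compared, which have fewer degrees of freedom. The other settings lost 0 to 8. The cause of these other changes was not tested.

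Leaving out 1 array in turn, counts ran from 3 to 11 in 9-week conventional knockouts against wild types, 0 to 1 at 12 weeks, 0 to 4 in 9-week SPF and 11 to 22 in 12-week SPF knockouts. Between the 12-week knockouts they ran from 8 to 18, in conventional knockouts from 0 to 5 (9 against 7 weeks) and 0 to 7 (12 against 9 weeks), in SPF knockouts from 0 to 14 (12 against 9 weeks), and in 9-week conventional against 12-week SPF knockouts from 0 to 7. For the changes of a difference they ran from 0 to 1, 0 to 6 and 0 to 9, and for the 9-week conventional minus 12-week SPF effect from 0 to 2.

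Deviations of same-numbered arrays of an age had correlations of both signs, from -0.44 to 0.26. With so few arrays per group this check cannot decide whether the numbers pair the samples. With a replicate block there were 9 calls in 9-week conventional and 17 in 12-week SPF knockouts against wild types and 12 between the 12-week knockouts, and 8 of the 52 named calls were lost. Of the 45 ABC genes 18 read below the 40% point of mean signal.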

Other observations

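The probe sets of some ABC genes disagreed, as seen after their values were known. Abcb1b, the paralog of Abcb1a, was read by 2 dim probe sets. The brighter differed by -0.06 in 9-week conventional knockouts from wild types, and the other by 0.71 ± 0.15 (limma adjusted p = 0.00248 over all probe sets) and by 0.27 (adjusted p = 0.195) in 12-week SPF knockouts. Abcc5 has 10 probe sets, and the one that stands for it fell by 0.52 in 12-week SPF knockouts while others lay between -0.52 and 0.08. Of the 3 probe sets of Abcc9, the differences there were -0.86, -0.69 and -0.004.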
